A study of Mus musculus with 6 samples.

Results

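The nuclear genes for the subunits of the mitochondrial respiratory chain and ATP synthase were examined in whole brains of C57BL/6 mouse embryos at stage E14.5. The 3 knockout libraries carried the Mfsd7c-/- genotype, the loss of a membrane transporter, and the 3 wild-type libraries did not. No other allele or treatment is named for either group, and the promoter or cell type of the deletion, the litters and the sex of the embryos are not given, so a p-value here speaks only of the spread among 6 samples. Members were the gene symbols of the Nduf, Sdh, Uqcr, Cyc1, Cox and Atp5 families with at least 10 counts in at least 3 libraries. Of 52459 symbols, 89 matched the name patterns, 6 of these carried pseudogene symbols, 2 were under the count minimum and 81 were kept, all of which passed the low-count filter of the test. The 2 left out were the muscle isoform gene Cox6a2, at 6, 3 and 11 counts in the knockout and 8, 2 and 2 in the wild-type libraries, and the testis isoform gene Cox7b2, with 2, 3 and 2 against 1, 4 and 6. The scarcest gene kept was Cox7a1, with 21, 39 and 24 against 45, 50 and 35 counts.

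The respiratory chain sits in the inner mitochondrial membrane. Complex I takes electrons from NADH and complex II from succinate, complex III hands them to cytochrome c, complex IV reduces oxygen to water, and the proton gradient built on the way drives ATP synthase, complex V. Each complex except II joins nuclear subunits to subunits encoded by mitochondrial DNA, and many nuclear subunits are small accessory proteins around an ancient catalytic core. The members comprised 36 genes of complex I, 4 of complex II, 9 of complex III, 15 of complex IV and 16 of complex V, plus Atp5sl, named for ATP synthase but known as an assembly factor of complex I. Ndufa4 was placed with complex IV, where its protein resides. They lie on 19 chromosomes, 3 of them on the X (Ndufa1, Ndufb11 and Cox7b).

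Libraries held 43784619 to 50549673 counts. Mfsd7c had 119, 129 and 130 counts in the knockout and 206, 291 and 259 in the wild-type libraries. The 37 mitochondrially encoded genes are listed at 0 in every library, so the subunits made in the mitochondrion were not measured. All 10 forebrain and brain markers were present, with summed levels of 714 to 736 CPM (counts scaled to the size of the library) in knockout and 645 to 678 CPM in wild-type brains. Epidermal markers were high in knockout replicate 1 at 545 CPM and wild-type replicate 1 at 469 CPM, against 26.3 to 101 CPM in the other 4. Caudal Hox genes, of hindbrain and spinal cord, were high in wild-type replicates 2 and 3 at 168 and 43.8 CPM, against at most 6.15 CPM elsewhere. Values without the first pair are called here the fit without the keratin-rich libraries, and those without the second pair the fit without the Hox-expressing libraries.

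Upstream sequence was read for the members because promoters of respiratory genes are known to share short motifs. RefSeq (GRCm38.p6) gave a window of 250 bases before to 50 after the start for 65 of the 81 members and for 27025 genes in all. The letters searched, on both strands, were GCGCA, any base and GCGC for nuclear respiratory factor NRF1, CCGGAAG for ETS factors, a family that includes the GABP activator of respiratory genes, and AAGATGGC for YY1. The NRF1 letters stood in 17 of 65 member windows (26.2%) against 5.19% of all genes. The ETS letters stood in 16 (24.6%) against 9.93%, and the YY1 letters in 9 (13.8%) against 3.19%, with 8 of those 9 after the start, where the letters also hold an ATG. ETS and YY1 matches overlapped in 0 members, and 36 members (55.4%) held at least 1 of the 3 motifs, against 16.4% of all genes. The genes compared were all those with a window, expressed in these brains or not, and expressed genes alone were not compared. A match is a string of letters and not a measured binding site.

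Stretches are printed for 3 members with differences between -0.15 and -0.21 on the log2 scale, Uqcr11, Atp5h and Ndufs5, and for Cox6a1, whose difference was near 0, as a contrast that holds the NRF1 letters as well. Each stretch ends 10 to 44 bases before the RefSeq start, lies outside every exon of the GENCODE M21 annotation, is on the minus strand and has its motif match in capitals. They are Uqcr11 at chr10:80406831-80406980 (ETS, read as CCGGAAG), Atp5h at chr11:115419963-115420112 (NRF1), Ndufs5 at chr4:123718203-123718352 (NRF1) and Cox6a1 at chr5:115348982-115349129 (NRF1, at 2 places). The full windows of Atp5h and Cox6a1 also held the ETS letters, outside the stretches printed.
Uqcr11: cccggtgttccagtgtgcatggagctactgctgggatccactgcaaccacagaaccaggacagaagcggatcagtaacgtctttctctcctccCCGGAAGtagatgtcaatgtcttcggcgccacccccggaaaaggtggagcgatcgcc
Atp5h: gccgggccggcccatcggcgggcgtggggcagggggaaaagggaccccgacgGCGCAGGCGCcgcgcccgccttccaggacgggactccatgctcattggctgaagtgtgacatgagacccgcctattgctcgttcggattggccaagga
Ndufs5: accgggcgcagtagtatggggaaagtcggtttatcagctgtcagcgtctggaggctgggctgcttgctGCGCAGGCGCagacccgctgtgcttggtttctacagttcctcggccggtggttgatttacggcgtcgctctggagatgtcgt
Cox6a1: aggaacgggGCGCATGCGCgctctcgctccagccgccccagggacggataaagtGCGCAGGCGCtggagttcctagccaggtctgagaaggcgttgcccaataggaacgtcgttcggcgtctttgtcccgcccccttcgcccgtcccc
The ETS match of Uqcr11 spans bases 66 to 60 before the start, the NRF1 match of Atp5h bases 141 to 132, that of Ndufs5 bases 98 to 89, and those of Cox6a1 bases 162 to 153 and 117 to 108.

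The edgeR quasi-likelihood test called none of the 81 members at an FDR of 0.05, where 0.659% of the 19565 genes tested passed, 0.624% higher and 0.0358% lower in knockout. The lowest adjusted p of a member was 0.346. Unadjusted p was under 0.05 for 14 members, 13 lower and 1 higher in knockout, where 3.46% of all genes were lower and 4.63% higher at that level. The DESeq2 Wald test called 0 members (1.63% of all genes passed) with 13 at unadjusted p under 0.05, and limma-voom called 0 (0.649%) with 12. The authors' deposited table gave no member an adjusted p under 0.05 (1.5% of 20564 genes passed), 11 had an unadjusted p under 0.05 and 71 had a negative fold change. The intervals were narrow: the 95% interval of the fold change lay within 1.5-fold of no difference for 79 of 81 members, the exceptions being Cox7a1 and Cox4i2. Members called also numbered 0 with the replicate number as a block (1.44% of all genes passed) and without knockout replicate 1 (0.255%), 2 (0.555%) or 3 (0.204%). The same held without wild-type replicate 1 (1.94%), 2 (0.18%) or 3 (0.22%), and without the Hox-expressing libraries (0.0968%).

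Below that threshold the members leaned the same way. The log2 fold change, knockout minus wild-type, was negative for 71 of 81 members (87.7%) against 52.6% of all genes. Its median was -0.10 over the members, with a median standard error of 0.0772, and -0.01 over all genes. In 18 members every knockout library was below every wild-type library, a pattern shown by 6.58% of all genes, and in 1 member, Cox4i2, every knockout library was above, as in 7.84% of all genes. The plot of fold changes with their intervals shows this as a low band with few points apart from it. In whole-brain RNA, fewer cells of a type and less RNA per cell cannot be told apart.

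**Figure D1:**
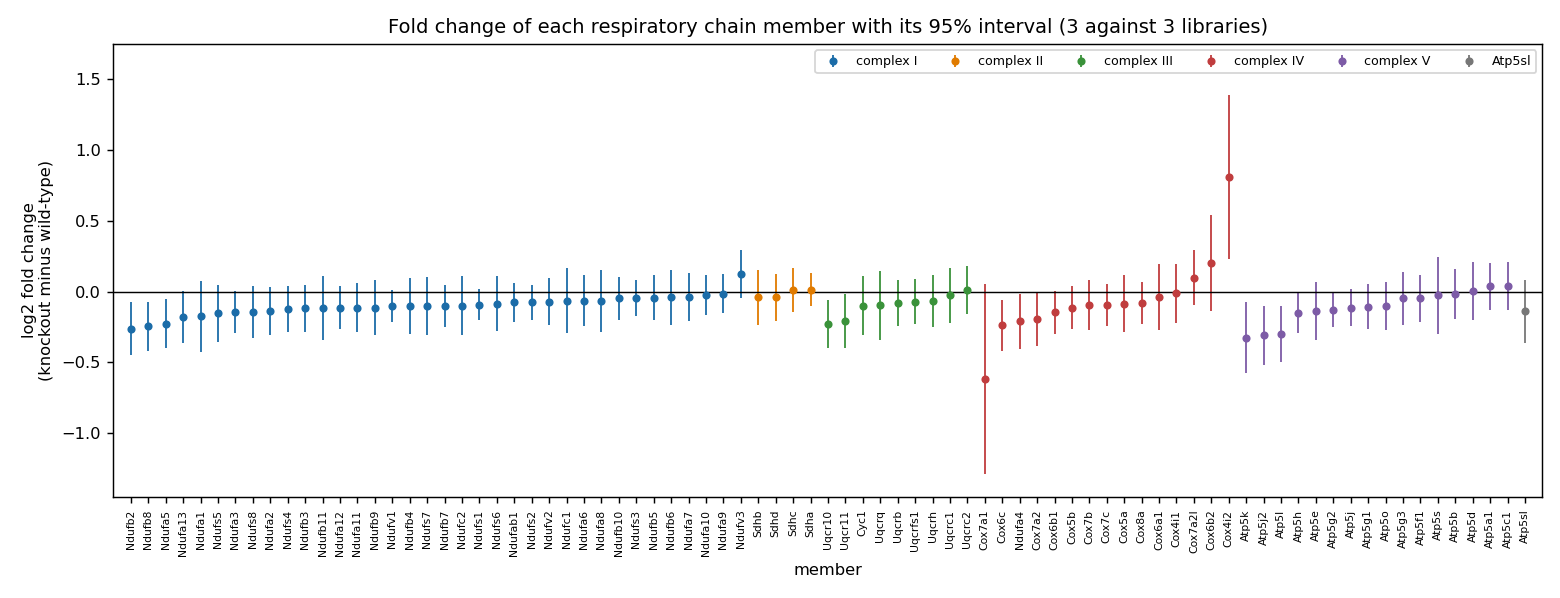
Log2 fold change (knockout minus wild-type) of each of the 81 members, sorted within each complex, with bars for the 95% interval from the edgeR fit on 3 against 3 libraries. Most points lie just under 0, complex II and the right side of complex V lie at 0, and Cox7a1, Atp5k, Atp5j2, Atp5l and Cox4i2 stand farthest out.

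The lean moved with 1 library. Wild-type replicate 1 was the highest library for 70 of 81 members (86.4%), against 23.0% of all genes. The summed level of the members was 8766, 8423 and 8640 CPM in the knockout libraries and 9953, 8698.5 and 8476 CPM in the wild-type libraries, in the order of replicates 1, 2 and 3 used throughout. Wild-type replicates 2 and 3 lay within the range of the knockout libraries, and wild-type replicate 1 was above it. On average over members, as log2 CPM minus a gene's own mean, wild-type replicate 1 was at 0.18 and the other 5 libraries were between -0.07 and -0.01. Without wild-type replicate 1 the median over members was -0.02, with 48 of 81 negative. Without both keratin-rich libraries it was -0.03, with 52 negative. Both fits leave wild-type replicates 2 and 3, the Hox-expressing libraries, as the whole wild-type group. A high wild-type replicate 1 and a difference of tissue in replicates 2 and 3 therefore cannot be told apart. Without the Hox-expressing libraries, where wild-type replicate 1 is the only wild-type library, the median over members was -0.22, with 77 negative. Whether the higher epidermal markers of wild-type replicate 1 have a part in this was not tested. Knockout replicate 1, which had more of them, was at -0.03 on the same scale. Markers of neurons were also highest in wild-type replicate 1, at a summed 8050 CPM with all 10 present, against 6860 to 7570 CPM in the other 5 libraries. So were skeletal muscle markers, at a summed 55.1 CPM against 30.0 to 40.5 CPM in the other 5. The part of either list was not tested.

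**Figure D2:**
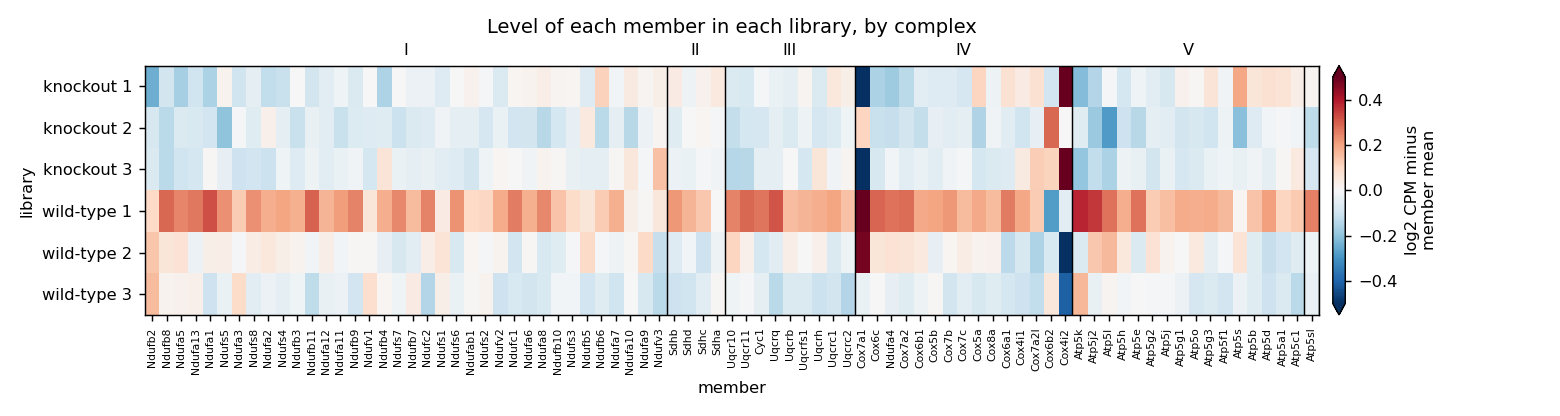
Level of each member in each library as log2 CPM minus that member's mean over 6 libraries, with members in columns by complex and libraries in rows. The row of wild-type replicate 1 is red for nearly every member, while wild-type replicates 2 and 3 resemble the knockout rows.

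All 5 complexes shared that library. Wild-type replicate 1 was at 0.17 for complex I, 0.13 for complex II, 0.22 for complex III, 0.18 for complex IV and 0.19 for complex V on that scale. The highest value of any complex in another library was 0.02. The median log2 fold changes were -0.10 for complex I, -0.01 for complex II, -0.08 for complex III, -0.095 for complex IV and -0.10 for complex V. Without wild-type replicate 1 they were -0.03, 0.05, 0.01, -0.02 and -0.03, so the sign turned for complexes II and III.

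**Figure D3:**
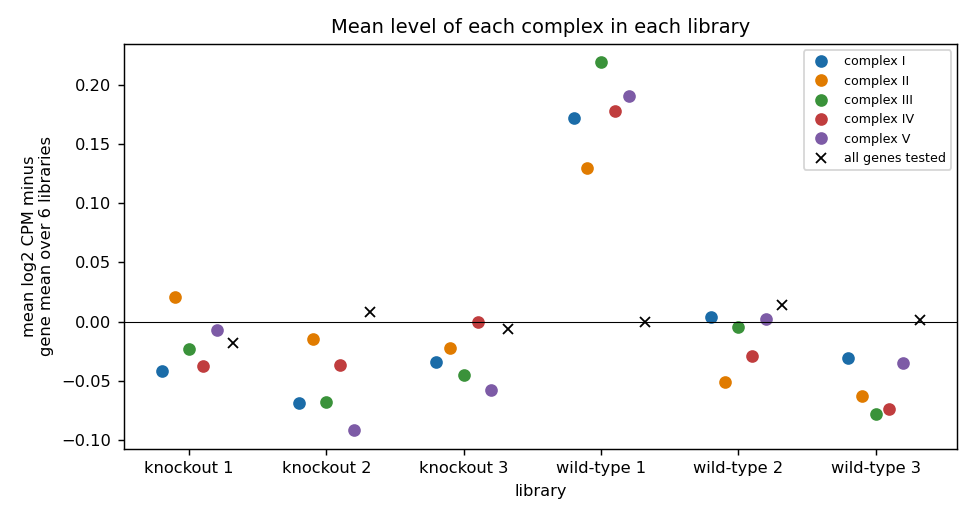
Mean over the members of each complex of log2 CPM minus the gene mean, in each library, with crosses for the mean over all genes tested. The 5 complexes lie between 0.13 and 0.22 in wild-type replicate 1 and between -0.09 and 0.02 in the other 5 libraries.

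Levels can be compared between genes only per length. On RPKM computed over the union of annotated exons, the complex medians were 37.5 for complex I, 45.5 for complex II, 60.5 for complex III, 102 for complex IV and 75.8 for complex V. The top member of each was Ndufc2 at 122, Sdhd at 61.7, Uqcrh at 111, Cox6b1 at 223 and Atp5o at 346 RPKM. With the longest annotated transcript as the length, the medians were 51.3, 61.0, 91.2, 127 and 103 RPKM, in the same order, but the top members of complexes II, IV and V became Sdhb, Cox4i1 and Atp5b. The order of single members thus depends on the length used. Atp5b, for example, has 4237 nucleotides in the union of its exons and 1916 in its longest transcript, while Atp5o has 530 by either. All 530 are annotated as coding, so the Atp5o model holds no untranslated bases and may be incomplete. Its RPKM and its place at the top of complex V rest on that model.

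Complex V held the members with the lowest p-values. Its small membrane subunits e, f and g, encoded by Atp5k, Atp5j2 and Atp5l, sit beside the proton channel, where e and g join ATP synthase into dimers that bend the membrane. Atp5j2 (chromosome 5, 145183698 to 145192062, GRCm38) measured 131.3, 127.8 and 133.3 CPM in the knockout libraries and 185.3, 159.5 and 141.5 CPM in the wild-type libraries. Its groups did not overlap, and the means were 131 ± 2.74 CPM in knockout and 162 ± 22.0 CPM in wild-type brains (SD, n = 3). The log2 fold change was -0.31 (SE 0.0913, edgeR adjusted p = 0.352).

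Atp5l (chromosome 9, 44912557 to 44920742) was at 76.8, 63.6 and 69.35 CPM against 93.5, 86.65 and 78.2 CPM. The highest knockout library was just under the lowest wild-type library, and the log2 fold change was -0.30 (SE 0.0875, edgeR adjusted p = 0.346). Atp5k (chromosome 5, 108433244 to 108434448) was at 42.8, 47.7 and 43.6 CPM against 64.8, 47.3 and 55.8 CPM. Here knockout replicate 2 was slightly above wild-type replicate 2, and the log2 fold change was -0.325 (SE 0.11, edgeR adjusted p = 0.460).

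The median log2 fold change of these 3 genes was -0.31 with all 6 libraries, -0.21 without wild-type replicate 1, -0.20 without the keratin-rich libraries and -0.50 without the Hox-expressing libraries. Over all 81 members it was -0.10, -0.02, -0.03 and -0.22 in the same fits. Usmg5, an ATP synthase membrane subunit gene outside the name patterns, was at -0.165 (log2, SE 0.0954, edgeR adjusted p = 0.715), with overlapping groups. Whether Usmg5 differs from the 3 genes named was not tested. Without the keratin-rich libraries Atp5l fell by 0.31 on the log2 scale and was the 1 member to pass in any of the fits run (edgeR adjusted p = 0.0447, where 2.31% of all genes passed, 1.34% higher and 0.977% lower). That fit rests on 2 against 2 libraries, and both of its wild-type libraries are the Hox-expressing ones. With all 6 libraries 0.0358% of all genes were called lower. Over the fits that leave out 1 library, the log2 fold change ran from -0.37 to -0.24 for Atp5l, from -0.40 to -0.20 for Atp5j2 and from -0.43 to -0.21 for Atp5k.

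The catalytic head of the same enzyme, F1, gave values near 0. Atp5b, its catalytic beta subunit, was at 926, 850 and 878 CPM in knockout and 982, 851 and 853 CPM in wild-type libraries. The 2 groups overlapped, and the log2 fold change was -0.02 (95% interval -0.195 to 0.16). The alpha subunit gene Atp5a1 was at 0.04, the gamma subunit gene Atp5c1 at 0.04, the delta subunit gene Atp5d at 0.004 and the epsilon subunit gene Atp5e at -0.14 on the log2 fold change scale. The median of the 5 F1 genes was 0.004, and 0.11 without wild-type replicate 1.

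Between head and membrane, the 4 peripheral stalk genes had a median log2 fold change of -0.11, and the 3 c-ring genes, whose identical mature product turns with the proton flow, -0.105. Among the c-ring genes Atp5g1 was at -0.105, Atp5g2 at -0.13 and Atp5g3 at -0.05. Their division of labour was close in the 2 groups. Atp5g3 made up 49.7% ± 1.11 of the counts of the 3 genes in knockout and 48.4% ± 1.15 in wild-type brains (SD, n = 3), Atp5g2 29.5% ± 1.16 and 30.4% ± 1.27, and Atp5g1 20.8% ± 0.159 and 21.2% ± 0.136. Atp5o, the stalk subunit OSCP and the most abundant complex V member per union exon length, was at -0.10 on the log2 fold change scale (SE 0.0742).

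**Figure D4:**
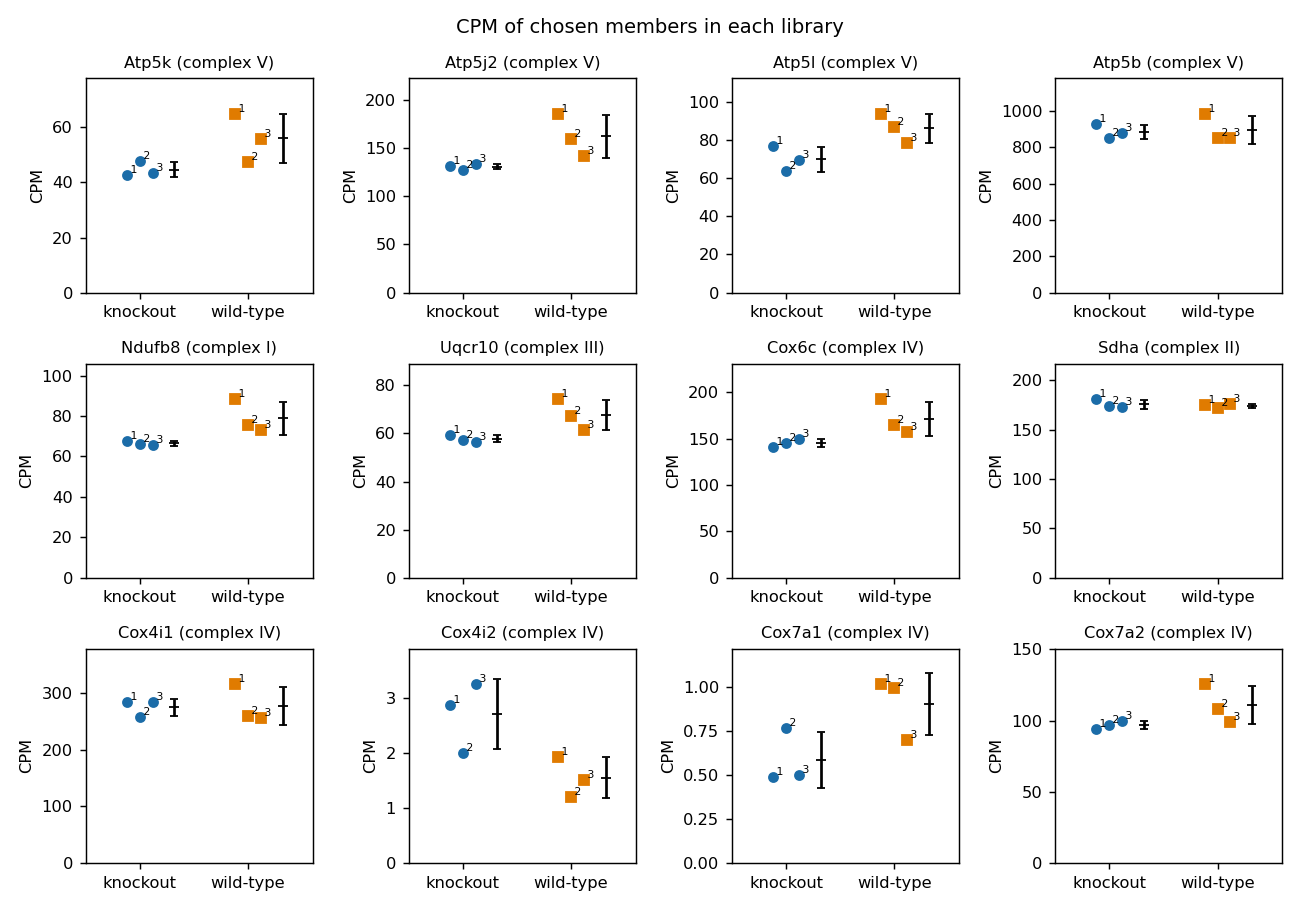
CPM of 12 members in each library, knockout as circles and wild-type as squares with replicate numbers, and bars for the mean and SD of 3 libraries; each axis starts at 0. Atp5j2, Atp5l, Ndufb8, Uqcr10, Cox6c and Cox4i2 show no overlap between the groups, while Atp5b, Sdha and Cox4i1 overlap widely.

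Complex I had 35 of 36 members negative, with 0 past the test and 3 at unadjusted p under 0.05. Those 3 are accessory subunits. Ndufb8 (chromosome 19, 44548572 to 44555440), a subunit of the proton-pumping membrane arm, was at 67.8, 65.9 and 65.8 CPM in knockout and 88.3, 75.4 and 73.2 CPM in wild-type libraries. The knockout libraries lay close together under all 3 wild-type ones, and the log2 fold change was -0.25 (SE 0.0754, edgeR adjusted p = 0.374). Ndufb2, another membrane arm subunit, was at 14.3, 16.0 and 16.1 against 18.1, 18.6 and 18.85 CPM. It was 1 of the 7 complex I members in which wild-type replicate 1 was not the highest library, its log2 fold change was -0.26 (SE 0.0828, edgeR adjusted p = 0.404), and without wild-type replicate 1 it was -0.28. Ndufa5, of the arm that protrudes into the matrix, was at 34.3, 36.6 and 35.9 against 45.5, 40.5 and 39.0 CPM, a log2 fold change of -0.23 (SE 0.0761). Ndufa13, an accessory subunit also known as GRIM-19, followed at -0.18 (SE 0.0811).

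The 7 core subunits of complex I, which bind NADH and carry the flavin and iron-sulfur clusters, were all negative, from -0.14 to -0.05, with a median log2 fold change of -0.09. The 29 accessory members had a median of -0.10. Without wild-type replicate 1 the core median was -0.04 with 5 of 7 negative, and the accessory median -0.03 with 19 of 29 negative. Ndufs1, the largest core subunit, was at 83.9, 86.6 and 84.6 CPM in knockout and 90.2, 92.1 and 89.6 CPM in wild-type libraries. Its groups did not overlap, the log2 fold change was -0.09 (SE 0.0471, edgeR adjusted p = 0.683) and it was -0.09 without wild-type replicate 1 too. Ndufv3, a small subunit beside the NADH site, was the 1 positive member of the complex at 0.125 (SE 0.0738).

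Complex II, which is also the succinate dehydrogenase of the tricarboxylic acid cycle and is wholly nuclear, had the median closest to 0. Sdha (chromosome 13, 74322254 to 74350280), the flavoprotein that oxidises succinate, was at 181, 174 and 173 CPM in knockout and 175, 172 and 176 CPM in wild-type libraries. The 6 libraries spanned a narrow range, with means of 176 ± 4.39 and 174 ± 1.95 CPM (SD, n = 3), and the 95% interval of the log2 fold change, -0.10 to 0.13, bounds any difference. The iron-sulfur subunit gene Sdhb and the membrane anchor genes Sdhd and Sdhc had log2 fold changes of -0.04, -0.04 and 0.01. All 4 were positive without wild-type replicate 1.

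In complex III 2 small accessory subunits, Uqcr10 and Uqcr11, lay farthest from 0. Uqcr10, a single-span accessory subunit, was at 59.4, 57.5 and 56.6 CPM in knockout and 74.2, 67.2 and 61.5 CPM in wild-type libraries. Its groups did not overlap and the log2 fold change was -0.23 (SE 0.0746, edgeR adjusted p = 0.431). Uqcr11, whose upstream stretch is printed above, was at 59.5, 59.0 and 57.0 against 76.5, 63.7 and 62.2 CPM, also without overlap, a log2 fold change of -0.21 (SE 0.0832). The 5 small subunits had a median of -0.10, with Uqcrq, Uqcrb and the hinge protein gene Uqcrh at -0.10, -0.08 and -0.07, within the range of the catalytic and core genes. The 4 catalytic and core genes had a median of -0.05, with cytochrome c1 (Cyc1) at -0.10, the Rieske protein gene Uqcrfs1 at -0.07 and the core protein genes Uqcrc1 and Uqcrc2 at -0.03 and 0.01. Wild-type replicate 1 was the highest library for all 9 members.

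In complex IV, Cox6c (chromosome 15, 35925886 to 35938246), a small transmembrane subunit, was at 141, 146 and 149 CPM in knockout and 192, 164 and 157 CPM in wild-type libraries. Its groups did not overlap, and the log2 fold change was -0.24 (SE 0.0793, edgeR adjusted p = 0.445), or -0.145 without wild-type replicate 1. The log2 fold change of Ndufa4 was -0.21 (SE 0.0854) and that of Cox6b1, the subunit that bridges the dimer on the intermembrane side, was -0.14 (SE 0.0666). Cox7b and Cox6a1 were at -0.10 and -0.04.

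Complex IV also has paired isoforms. Cox4i1 encodes the common form of subunit 4 and Cox4i2 a form known from lung and pericytes and induced at low oxygen in several cell types. Cox4i2 (chromosome 2, 152754173 to 152765037) was at 2.87, 2.01 and 3.255 CPM in knockout and 1.94, 1.19 and 1.52 CPM in wild-type libraries, from 60 to 156 counts each. The lowest knockout library was just above the highest wild-type library. The log2 fold change was 0.81 (SE 0.255, edgeR adjusted p = 0.399), the highest of all members, and ran from 0.65 to 1.00 over the fits that leave out 1 library.

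Cox4i1 was at 284, 258 and 285 against 316, 261 and 257 CPM, with a log2 fold change of -0.01. Cox4i2 therefore supplied 0.968% ± 0.181 of the counts of the pair in knockout and 0.551% ± 0.0832 in wild-type brains (SD, n = 3), a difference that was not tested apart from the fit. Mural markers, which include pericyte genes, were summed at 207 to 237 CPM in knockout and 291 to 299 CPM in wild-type brains, with all 10 present. Most of that gap was Rgs5, which fell by 1.28 on the log2 scale (edgeR adjusted p = 0.00094). Without it the other 9 summed to 171 to 193 CPM against 186 to 206 CPM, which overlap. Notch3, at 69.3 to 95.9 CPM over the 6 libraries, was the largest part of that sum. None of the 9 passed, with log2 fold changes from -0.54 (Des) to 0.125 (Acta2). Abcc9 did not overlap, at 21.1 to 22.7 against 25.95 to 27.3 CPM, as in 6.58% of all genes. Its log2 fold change was -0.28 (edgeR adjusted p = 0.219). Of the 10 mural markers 8 were negative, against 52.6% of all genes. The summed level of 10 endothelial markers was 409 to 451 against 302 to 362 CPM, with all 10 present. These did not move as one, with 4 called higher and 1 called lower by edgeR at FDR 0.05, and 2 of the 10 negative. Of all genes 0.624% were called higher and 0.0358% lower. The part of the mural or the endothelial markers in the Cox4i2 value was not tested.

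The 3 members of the Cox7a group went different ways. Cox7a2, the form found in most tissues, was at 94.2, 97.2 and 99.6 CPM in knockout and 125, 108 and 99.3 CPM in wild-type libraries, a log2 fold change of -0.19 (SE 0.0826). Cox7a2l, for a related protein linked to supercomplexes of complexes III and IV, was at 161, 148.5 and 166 against 167, 137 and 140 CPM. Its log2 fold change was 0.10 (SE 0.0844), and supercomplexes were not measured. As a share of the counts of the 3 genes, Cox7a2 was 36.8%, 39.4% and 37.4% in knockout and 42.8%, 43.9% and 41.3% in wild-type libraries. These shares did not overlap, and since they are taken within a library they do not depend on its scaling. Neither gene passed the test, and the share itself was not tested. Cox7a2 has the shorter coding sequence of the pair, 249 against 402 nucleotides, and the part of length in the share was not tested.

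Cox7a1, the heart and muscle form, was at 0.487, 0.769 and 0.501 CPM against 1.02, 0.995 and 0.698 CPM. The groups overlapped, and the log2 fold change of -0.62 (SE 0.294, 95% interval -1.29 to 0.06) was the lowest of all members and the least precise. Skeletal muscle markers were summed at 30.0 to 38.0 CPM in knockout and 38.6 to 55.1 CPM in wild-type libraries, and their part in the Cox7a1 value was not tested. Cox6b2, the testis form of subunit 6b, was at 5.35, 6.98 and 6.18 against 4.71, 5.43 and 5.95 CPM. Its log2 fold change was 0.20 (SE 0.15), and it made up 3.95% ± 0.595 and 3.16% ± 0.571 of the counts of the Cox6b pair (SD, n = 3).

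The members are short genes, and the libraries differed by length. Over 48 members with under 500 coding nucleotides the median log2 fold change was -0.11, over 22 members of 500 to 1000 it was -0.06 and over 10 members of 1000 to 2000 it was -0.02. The 1 member above 2000, Ndufs1, was at -0.09, apart from that order. Over all genes of the 4 length classes the medians were -0.04, -0.002, 0.001 and 0.007. In wild-type replicate 1 the median gene was 0.13 above its own mean (log2) at under 500 coding nucleotides, 0.08 at 500 to 1000, 0.02 at 1000 to 2000 and -0.06 above 2000. Across the 81 members, which share libraries, fold change and log2 coding length correlated at Pearson's r = 0.35 and Spearman's rho = 0.54, and at 0.26 and 0.39 without wild-type replicate 1, as a description across genes. With a per-library length correction on exon length the median over members was -0.06, and on coding length -0.07. The 3 small membrane subunits of ATP synthase among the members stood at -0.30 and -0.27 under the same corrections.

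**Figure D5:**
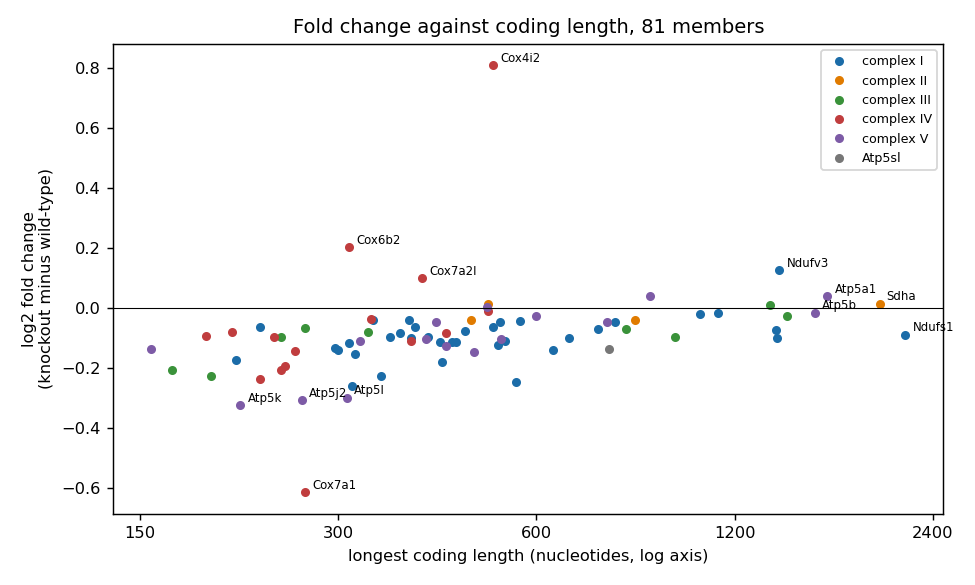
Log2 fold change (knockout minus wild-type) of each of the 81 members against its longest annotated coding length in nucleotides on a log axis, coloured by complex. Shorter members tend to lie lower, with Ndufs1, the longest, at -0.09, and Atp5k, Atp5j2 and Atp5l lie below other members of like length, with Cox7a1 and Cox4i2 apart from the rest.

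The median fold change was close with and without each motif. It was -0.08 for the 17 members with the NRF1 letters and -0.10 for the 48 without. The medians were -0.11 and -0.10 for those with and without the ETS letters, and -0.11 and -0.10 for the YY1 letters. Complex V held the NRF1 letters in 6 of 13 windows and complex IV in 1 of 12. Each of the 3 small membrane subunits of ATP synthase among the members had at least 1 of the motifs, as did 8 of 13 catalytic and core members with a window.

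Most other lists of the pathway held no gene past the test, against 0.659% of all genes, and they differed in how they leaned and in wild-type replicate 1. Of the assembly factors, 0 of 15 for complex I, 0 of 4 for complex II, 0 of 6 for complex III, 0 of 20 for complex IV and 0 of 4 for complex V passed the edgeR test, with 3 at unadjusted p under 0.05 in all, where 8.09% of all genes were at that level. Negative were 11 of 15, 2 of 4, 5 of 6, 14 of 20 and 1 of 4 (52.6% of all genes), the medians ran from -0.07 for complex I to 0.025 for complex V, and wild-type replicate 1 stood at 0.08 to 0.135 as mean log2 deviation. The 2 lowest p-values of each of these lists belonged to Ndufaf4 and Acad9, Sdhaf4 and Sdhaf3, Uqcc2 and Lyrm7, Pet100 and Cox19, and Fmc1 and Atpaf1, with log2 fold changes from -0.28 (Pet100) to 0.16 (Lyrm7). Of 13 tricarboxylic acid cycle genes 0 passed, with 1 at unadjusted p under 0.05, 9 negative, a median of -0.05 and wild-type replicate 1 at 0.06. Of 17 biogenesis regulators 0 passed, with 1 at that level, 10 negative, a median of -0.02 and wild-type replicate 1 at -0.01, so this list did not share the high value of that library. The genes with the lowest p-values there were Idh3g and Idh3b, 2 subunits of isocitrate dehydrogenase, at -0.13 and -0.09, and the mitochondrial RNA polymerase gene Polrmt and the nuclear receptor gene Esrra, at -0.18 and -0.165. Of 77 mitochondrial ribosomal protein genes, which make the mitochondrially encoded subunits, 0 passed and 4 were at that level, led by Mrpl20 at -0.21 and Mrpl41 at -0.27. Their median was -0.06 with 65 negative, wild-type replicate 1 stood at 0.12, and without it the median was -0.01. Cytosolic ribosomal protein genes were at 0.15 in wild-type replicate 1, and 18 of 80 were negative. Their median was 0.06 with all libraries and 0.16 without wild-type replicate 1. Of these genes 0 were called and 0 were at unadjusted p under 0.05. The lowest p-values were at Rpl9 and Rpl5, with log2 fold changes of 0.16 and 0.15. Cycs, the mobile electron carrier cytochrome c, was at 75.1, 73.0 and 71.0 CPM in knockout and 95.4, 83.1 and 77.8 CPM in wild-type libraries, without overlap, and the fold change was -0.225 (log2, SE 0.0773, edgeR adjusted p = 0.472).

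Among 9 genes linked to the mitochondrial response to low oxygen, 8 of mitochondrial proteins and the MYC antagonist gene Mxi1, 3 rose and 0 fell, where 0.624% of all genes rose. Higd1a, a small membrane protein that binds complex IV, rose from 37.9, 38.4 and 38.5 CPM in wild-type to 72.0, 56.1 and 74.1 CPM in knockout libraries, or 0.82 on the log2 scale (SE 0.102, edgeR adjusted p = 0.011). Its call was lost when knockout replicate 1 (adjusted p = 0.0608) or 3 (0.095) or wild-type replicate 2 (0.0792) or 3 (0.079) was left out. The other 2 were Pdk1, which shuts pyruvate out of the cycle, at 1.56, and Bnip3, a mitophagy receptor, at 1.905 (edgeR adjusted p = 0.00094 and 0.0015). Both passed in each of the 6 fits that leave out 1 library. Cox4i2 and Ndufa4l2, the low-oxygen relatives of Cox4i1 and Ndufa4 on this list, did not pass, with log2 fold changes of 0.81 and 0.35.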

How the data were processed

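RNA was measured in 3 knockout and 3 wild-type whole brains, grouped by sample titles. The deposited counts are whole numbers for each gene symbol, not normalized, judging by their values. The submitters' processing notes name STAR 2.5.2a, featureCounts and DESeq2 1.12.4, and list 2 builds, mm10 and hg19, without saying what each was used for. The sources used here do not give the strand setting, the annotation or the treatment of reads shared between copies. Respiratory genes have many processed pseudogenes, so isoform pairs and members with near-identical copies are uncertain. The authors' table holds, per the file headers, a signal (mean normalized count), a log2 fold change, a Wald score and a p-value.

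In edgeR 4.0.16, filterByExpr kept 19565 genes, which were scaled by TMM and tested with the robust quasi-likelihood test, Benjamini-Hochberg adjusted over all of them. CPM uses TMM-scaled library sizes. The common biological coefficient of variation was 15.3%, above counting error for all but scarce members. Positions and lengths come from GENCODE M21 (GRCm38), to which 48311 of 52459 symbols matched. Computations used R 4.3.3, limma 3.58.1 and DESeq2 1.42.0.

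The members and the lists of other genes were chosen with earlier results of these data known. The mural list, the coding length correction and the printed stretches were chosen after these values were seen. Named members were, per complex, the 4 with the lowest p-value and the most abundant per length, isoform groups, the highest and lowest fold change, those at the count threshold, and of other pathway lists the 2 lowest p-values. The rest (Atp5a1, Atp5b, Atp5c1, Atp5d, Atp5e, Atp5h, Ndufs1, Ndufs5, Ndufv3, Uqcrc1, Uqcrc2, Uqcrfs1 and Uqcrq) were named to cover each part of a complex or a printed stretch. Alternatives were other size factors, filters and tests, length corrections, a replicate block, a sex term, other thresholds and libraries left out.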

Additional observations from a re-analysis of the deposited data

How the results depend on the processing

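In each fit that left out 1 library, 0 members were called in either direction. The median over all members then ran from -0.135 to -0.02, over complex I from -0.13 to -0.03, complex II from -0.05 to 0.05, complex III from -0.135 to 0.01, complex IV from -0.14 to -0.02 and complex V from -0.14 to -0.03. The replicate numbers are not known to pair embryos, and deviations of same-numbered libraries correlated at 0.59, 0.31 and 0.03. With the replicate block 0 members were called, and the median over all members was -0.09. Leaving out the keratin-rich libraries gave 1 member lower. Leaving out the Hox-expressing libraries, where the lone wild-type library is assumed to vary like the others, moved the medians to -0.22 over all members, -0.225 for complex I, -0.15 for II, -0.21 for III, -0.25 for IV and -0.20 for V. The sex term took sex from the counts of the Xist gene, split at 1000, and rests on wild-type replicate 2. With it the median over all members was -0.118, the same as without that library. Of the counts and medians under the alternatives, 141 stayed the same or within the spread between replicates and 7 moved, all given above. That spread was wide beside the medians, at 0.087 for a median of -0.096 over all members. The 141 therefore include the changes of sign of complexes II and III without wild-type replicate 1, and the tally is no measure of robustness.

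Several named members near 0 changed sign, none past the threshold, and the cause was not tested. Over the fits that left out 1 library, Atp5g3 ran from -0.091 to 0.041, Cox4i1 from -0.064 to 0.091, Cox6a1 from -0.108 to 0.097, Cyc1 from -0.163 to 0.022, Ndufc2 from -0.188 to 0.012, Sdha from -0.007 to 0.025, Sdhb from -0.098 to 0.068, Sdhc from -0.034 to 0.087, Sdhd from -0.097 to 0.039 and Uqcrh from -0.134 to 0.01. For each of these but Sdha, the highest value was the one without wild-type replicate 1. Sdha turned negative without knockout replicate 1, and Sdhc without wild-type replicate 2 or 3. Without the keratin-rich libraries Cox4i1 was 0.069, Cox6a1 0.051, Cox7b 0.004, Cyc1 0.005, Ndufc2 0.006, Sdha -0.004, Sdhb 0.04, Sdhd 0.043 and Uqcrh 0.03. Without the Hox-expressing libraries Cox7a2l was -0.069 and Sdhc -0.122. With exon length offsets Cox4i1 was 0.021, Cox6a1 0.023 and Sdhd 0.001, with coding length offsets Cox4i1 was 0.00018, and with the sex term Sdhc was -0.034.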
